A study of Mus musculus with 12 samples.

Results

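MHC class II antigen presentation is described here by 7 genes, chosen by name from the 18180 genes of the deposited expression table: H2-Aa, H2-Ab1, H2-Eb1, H2-DMa, H2-DMb1, Cd74 and Ciita. All 7 were present in the table. The data come from 3 mouse glioblastomas (GBMs; T3, T4 and T5), from each of which EGFR+ cells were sorted by flow cytometry for bulk RNAseq, giving 12 libraries of PDGFRA+, PDGFRA-, GAL1+ and GAL1- cells, so that each population has n = 3 tumors. PDGFRA is a receptor tyrosine kinase carried by oligodendrocyte-lineage cells, and GAL1 is Galectin-1, the product of Lgals1. All 4 populations share the genotype of the model: a conditional (Cre/Lox) transgene for human EGFR, constitutive loss of Cdkn2a and a conditional luciferase reporter, among other alleles, on a mixed background that the labels give as C57Bl/6J, 129S4, FVBN/J and Balb/cJ. Tumors were started by injecting a Cre lentivirus into the brain of adult mice of either sex, so recombination marks whichever cells took up the virus near the needle, and the cells were taken from end-stage tumors. The sort is described as CD45- in the account of the experiment, whereas the sorting protocol names antibodies to EGFR and to PDGFR or Galectin-1 only. The study gives age, as ranges within adulthood, and sex, in equal numbers, for its animals as a whole and not for each of these tumors.

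MHC class II molecules are heterodimers of an alpha and a beta chain that carry peptides from endocytosed proteins to the cell surface, where CD4+ T cells read them. New heterodimers are held by the invariant chain, which lysosomal proteases trim to a short fragment in the groove, and the H2-DM heterodimer exchanges that fragment for peptide. Dendritic cells, B cells and macrophages are the usual expressing cells, microglia express the genes weakly at rest and more in inflamed brain, and interferon-gamma can turn them on in other cell types. Transcription depends on CIITA, a coactivator that does not bind DNA itself and docks on factors assembled over the X and Y boxes of class II promoters.

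Those boxes are shown because the class II genes are known targets of this coactivator. Promoter windows, from 250 bases before to 50 bases after a gene's start, were taken from RefSeq (GRCm38.p6; the expression values were made on mm39). They were held for H2-Aa, H2-Eb1, H2-DMb1 and H2-DMa among the members, and for H2-Eb2, H2-DMb2, H2-Oa and H2-Ob among the other class II genes. The windows of H2-Ab1, Cd74, Ciita and H2-Ea were not used here. In the stretches below, capitals mark the Y box letters TGATTGG, the X box letters AACNNATG and, in H2-Aa, the letters TGACGTCA of a cAMP response element. The 4 stretches of H2-Eb1, H2-Eb2, H2-DMb1 and H2-Ob lie on the plus strand at chr17:34305761-34305825, chr17:34325528-34325592, chr17:34153083-34153147 and chr17:34238801-34238865. Those of H2-DMb2 and H2-Oa lie on the plus strand at chr17:34145112-34145176 and chr17:34092289-34092353, and that of H2-Aa lies on the minus strand at chr17:34287854-34287918. Each is given 5′ to 3′ along its gene, is 65 bases long and ends upstream of the annotated start.
H2-Eb1: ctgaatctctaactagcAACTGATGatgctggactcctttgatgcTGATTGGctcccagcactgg
H2-Eb2: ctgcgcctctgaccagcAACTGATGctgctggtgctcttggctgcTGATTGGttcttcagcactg
H2-DMb1: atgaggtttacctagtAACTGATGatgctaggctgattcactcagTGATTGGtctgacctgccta
H2-DMb2: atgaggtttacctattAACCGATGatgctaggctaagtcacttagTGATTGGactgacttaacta
H2-Ob: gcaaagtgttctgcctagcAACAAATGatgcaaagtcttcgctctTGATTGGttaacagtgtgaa
H2-Aa: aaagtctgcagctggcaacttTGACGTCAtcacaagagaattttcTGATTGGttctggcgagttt
H2-Oa: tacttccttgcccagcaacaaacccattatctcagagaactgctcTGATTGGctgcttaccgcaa

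The Y box letters were present in all 7 of these promoters, with their first base from 45 (H2-Oa) to 102 (H2-Eb2) bases before the start. The X box letters preceded them in H2-Eb1, H2-Eb2, H2-DMb1, H2-DMb2 and H2-Ob, at a gap of 20, 20, 21, 21 and 18 bases. In H2-Aa, TGACGTCA stood 16 bases before the Y box letters. None of these letters, on either strand, was in the 2 windows listed for H2-DMa, which says only that these letters are not in those windows. Over all 32851 RefSeq windows, both strands searched, 7.82% held TGATTGG, 8.86% held AACNNATG and 1.79% held TGACGTCA. An X box match followed by a Y box match at a gap of 5 to 40 bases was held by 18 windows (0.0548%), of which 5 belong to the class II genes listed above. The motifs were chosen after these promoters had been read, so these shares are a description.

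The sorted cells were checked against markers of their own and of other cell types. Reads recovered from the deposited values ran from 9851175 to 24117541 per library, and a floor of 3 reads lay between −2.99 and −1.44 on the log2 CPM scale (counting error only). Lgals1 was called higher in GAL1+ than in GAL1- cells (log2 fold change 1.29 ± 0.23 SE, adjusted p = 0.000967), while Pdgfra was not called between PDGFRA+ and PDGFRA- cells (1.60 ± 0.41 SE, adjusted p = 0.249). Markers of leukocytes, which a CD45- gate is meant to remove, were present in every library. The summed level of 12 pan-leukocyte genes ran from 3090 to 4228 CPM in GAL1+ libraries, 761 to 3276 in PDGFRA- libraries, 693 to 1628 in PDGFRA+ libraries and 90.7 to 237 in GAL1- libraries, with none of the 12 at 0 reads in any library. Values of these markers are given beside each comparison of populations, and their part in the results was not tested.

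H2-Aa and H2-Ab1 encode the alpha and beta chains of I-A, the class II molecule found in all common mouse strains. Given in the order T3, T4 and T5, H2-Ab1 was at a log2 CPM of 10.38, 11.44 and 12.20 in GAL1+ cells, 9.80, 9.27 and 12.02 in PDGFRA- cells, 8.81, 10.46 and 11.11 in PDGFRA+ cells and 7.19, 7.92 and 8.48 in GAL1- cells. H2-Aa was at 9.32, 10.58 and 11.58 in GAL1+ cells, 8.94, 8.08 and 11.08 in PDGFRA- cells, 7.73, 9.35 and 10.04 in PDGFRA+ cells and 5.56, 6.85 and 7.27 in GAL1- cells. For both genes every GAL1- library lay below every other library, and the PDGFRA- and PDGFRA+ libraries overlapped each other and the GAL1+ libraries. The lowest of these values, H2-Aa in the GAL1- library of T3, still rests on 1318 recovered reads.

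H2-Eb1 encodes the beta chain of I-E. It was at 9.86, 10.99 and 11.83 in GAL1+ cells, 9.24, 8.62 and 11.50 in PDGFRA- cells, 8.23, 9.98 and 10.72 in PDGFRA+ cells and 6.42, 7.40 and 8.06 in GAL1- cells, again with the GAL1- libraries below all others. The I-E alpha gene, H2-Ea, is disrupted in C57BL/6 mice and annotated there as a transcribed pseudogene, but it was read in all 3 of these mixed-strain tumors, at 8.69, 9.86 and 10.71 in GAL1+ and 4.94, 6.18 and 6.54 in GAL1- cells. H2-Ea lay below H2-Eb1 by a log2 difference of 0.98 to 1.52 in the 12 libraries, a difference on the scale of CPM and not per length.

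Cd74, the invariant chain, was at 11.74, 12.86 and 13.48 in GAL1+ cells, 10.86, 10.32 and 13.11 in PDGFRA- cells, 9.87, 11.77 and 12.31 in PDGFRA+ cells and 7.23, 8.93 and 8.90 in GAL1- cells. In GAL1+ cells it took from 0.333% (T3) to 0.964% (T5) of all recovered reads, and in GAL1- cells from 0.0173% (T3) to 0.0536% (T4). The 7 members together took 0.638%, 1.29% and 1.97% of the reads in GAL1+ cells of T3, T4 and T5, and 0.0535%, 0.116% and 0.145% in GAL1- cells.

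H2-DMa and H2-DMb1 encode the alpha and beta chains of H2-DM, the peptide editor. H2-DMa was at 6.76, 7.18 and 7.97 in GAL1+ cells, 5.94, 4.95 and 7.72 in PDGFRA- cells, 5.36, 6.21 and 6.83 in PDGFRA+ cells and 4.61, 4.57 and 5.42 in GAL1- cells. H2-DMb1 was at 6.57, 7.02 and 7.92 in GAL1+ cells, 5.52, 4.61 and 7.76 in PDGFRA- cells, 4.66, 5.95 and 6.65 in PDGFRA+ cells and 2.51, 3.12 and 3.92 in GAL1- cells. H2-DMb1 thus fell into separate ranges in GAL1- and the other populations, whereas the highest GAL1- value of H2-DMa, in T5, was above its PDGFRA- value in T4 and its PDGFRA+ value in T3. H2-DMb1 and H2-DMb2 are near-identical copies and reads shared between genes were counted as fractions, so the split of reads between them is uncertain.

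Ciita, the coactivator, had the lowest mean level of the 7 in each population, at 4.20, 5.85 and 6.24 in GAL1+ cells, 3.80, 4.01 and 6.92 in PDGFRA- cells, 3.20, 4.51 and 5.33 in PDGFRA+ cells and 2.15, 3.01 and 4.14 in GAL1- cells. Its ranges overlapped more than those of the other members: the GAL1- value of T5 lay above the PDGFRA- values of T3 and T4 and close to the GAL1+ value of T3. It was also the only member whose highest value was in a PDGFRA- library, that of T5.

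**Figure D1:**
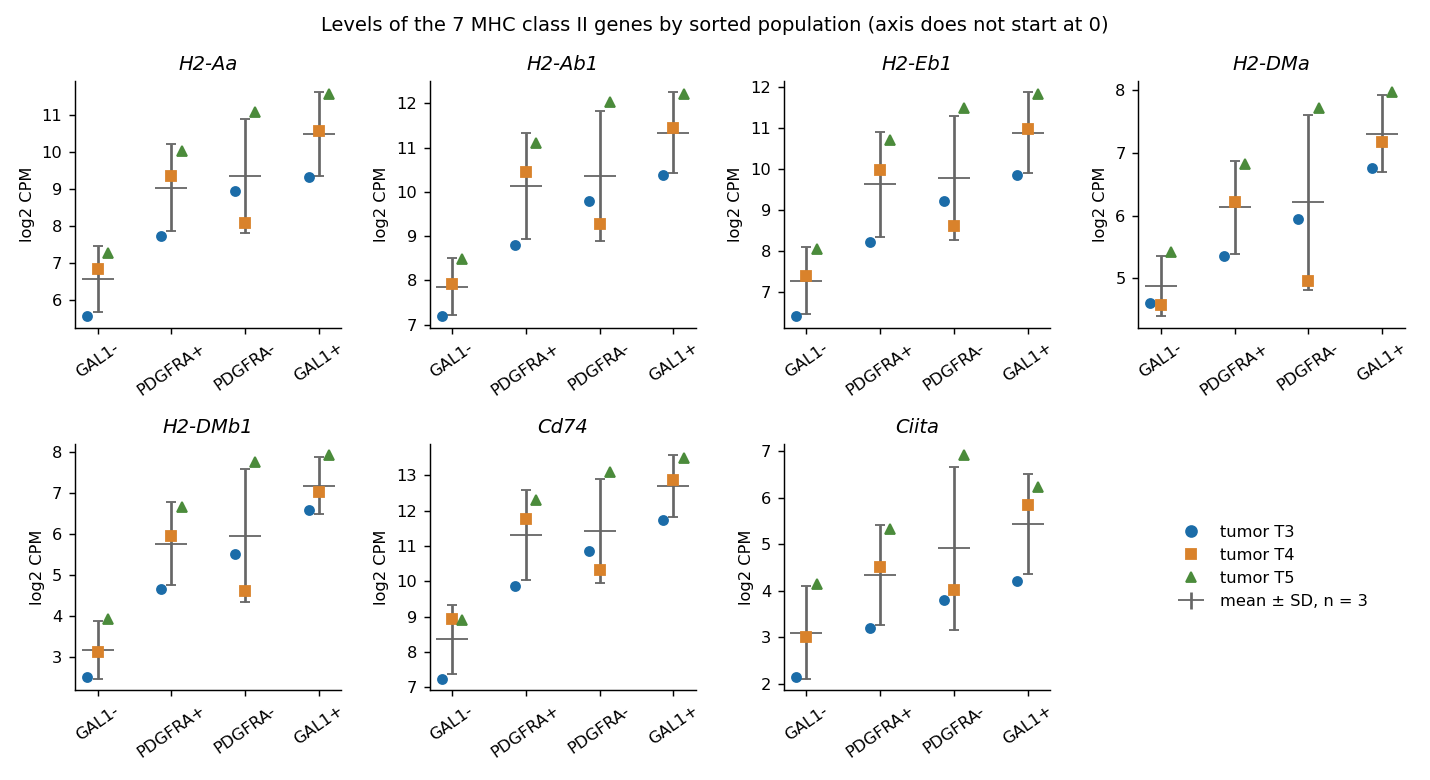
Log2 CPM of each of the 7 genes (y axes, each with its own range) in the 4 sorted populations (x axes). Points are the libraries of T3, T4 and T5, and grey bars are the mean ± SD (n = 3 tumors). GAL1- cells have the lowest mean and GAL1+ cells the highest mean in every panel, and the PDGFRA- library of T5 sits near the GAL1+ library of the same tumor.

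Levels were compared between genes per length, with exon lengths from GENCODE vM21 (GRCm38), which is not the annotation the reads were counted on. In GAL1+ cells the mean log2 CPM per kb was 11.95 for Cd74, 9.98 for H2-Ab1, 9.93 for H2-Eb1, 8.57 for H2-Aa, 6.42 for H2-DMb1, 5.52 for H2-DMa and 2.18 for Ciita. H2-Ab1 and H2-Eb1 were next to each other in all 4 populations and closer than the spread between tumors. The order of the 7 was the same in PDGFRA- and PDGFRA+ cells. In GAL1- cells H2-DMa, at 3.08, stood above H2-DMb1, at 2.43, and the order was otherwise the same.

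Between the gates of the GAL1 sort, all 7 genes were higher on the GAL1+ side, without exception among the 3 tumors. Differences were tested with limma's moderated test across all 18180 genes, with the tumor as a block, and p-values were adjusted by the Benjamini-Hochberg method, with calls made under 0.05. The largest log2 fold change of GAL1+ over GAL1- cells was that of Cd74 (4.34 ± 0.46 SE, adjusted p = 7.26e-05, 20.3-fold), followed by H2-DMb1 (3.99 ± 0.42 SE, adjusted p = 7.18e-05) and H2-Aa (3.93 ± 0.45 SE, adjusted p = 9.68e-05). H2-Eb1 (3.60 ± 0.41 SE) and H2-Ab1 (3.48 ± 0.40 SE) were next. H2-DMa (2.44 ± 0.37 SE, adjusted p = 0.000406, 5.42-fold) and Ciita (2.33 ± 0.38 SE, adjusted p = 0.000647, 5.03-fold) changed least. All 7 were called, with 58.2% of all genes called in this comparison, and their median log2 fold change was 3.60 against −0.03 over all genes. The 12 pan-leukocyte genes were also all called higher, with a median of 4.44, as were 9 of 9 macrophage markers (median 5.95) and 9 of 9 microglia markers (median 4.71). Fewer class II-expressing cells and less class II RNA per cell cannot be told apart in bulk libraries. Without the tumor block 6 of the 7 were called (46.2% of all genes), Ciita having an adjusted p of 0.0505.

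Between the gates of the PDGFRA sort no direction was shared by the tumors. In T3 and T5 all 7 genes were lower in PDGFRA+ cells and in T4 all 7 were higher. For Cd74 the difference in log2 CPM, PDGFRA+ minus PDGFRA-, took the values −0.99, 1.45 and −0.80 in T3, T4 and T5. For H2-Ab1 it was −0.99, 1.19 and −0.92, and for Ciita −0.60, 0.50 and −1.60. The fitted log2 fold changes lay between −0.57 ± 0.38 SE (Ciita, adjusted p = 0.584) and −0.07 ± 0.37 SE (H2-DMa, adjusted p = 0.954), with a median of −0.20. None of the 7 was called, and none had an unadjusted p under 0.05. In this comparison limma called 0 genes of all those tested (0%), while 2137 had an unadjusted p under 0.05. The count was also 0 without a variance trend, with voom weights and without the tumor block. With T4 left out all 7 members had an unadjusted p under 0.05, as had 2783 of all genes. The median of the members was then −0.95, and no gene was called (0%). The mean log2 CPM of the pan-leukocyte genes followed the same pattern, at 6.20, 5.45 and 7.50 in PDGFRA- cells and 5.33, 6.59 and 6.46 in PDGFRA+ cells of T3, T4 and T5.

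**Figure D2:**
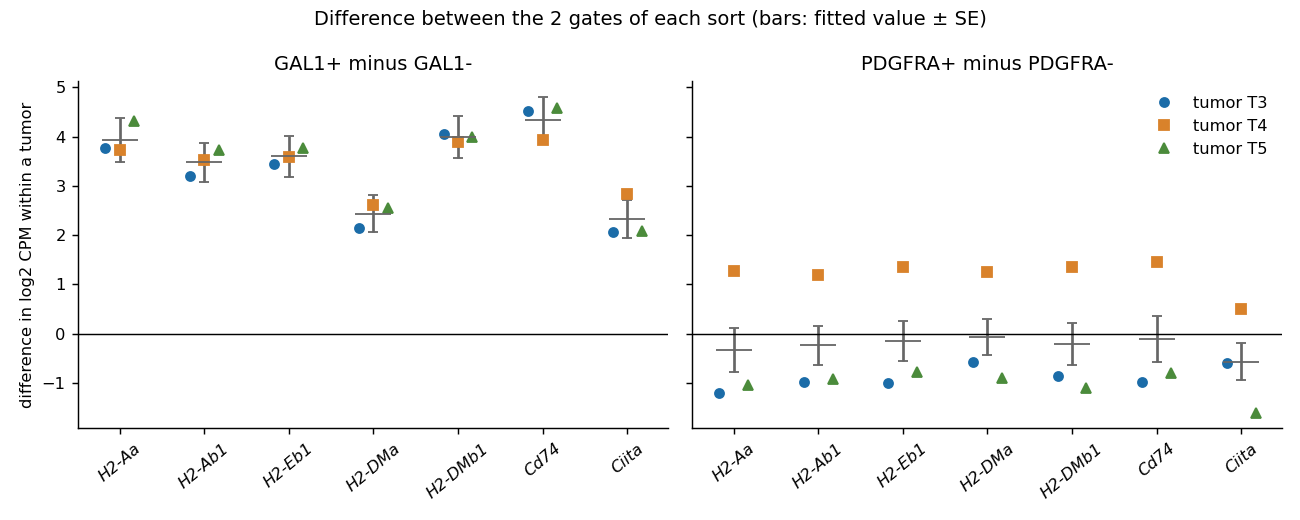
Difference in log2 CPM between the 2 gates of the GAL1 sort (left) and of the PDGFRA sort (right) for each gene (x axis). Points are the differences within T3, T4 and T5, and grey bars are the fitted log2 fold change ± SE. The GAL1 differences lie between 2.06 and 4.58 in all tumors, and the PDGFRA differences are above 0 in T4 and below 0 in T3 and T5.

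The step between gates was compared between the sorts by its own contrast, GAL1+ minus GAL1- less PDGFRA+ minus PDGFRA-, for which the 2 steps share no library. All 7 genes were called, with 51.1% of all genes called. The difference of the steps was largest for Cd74, at 4.46 ± 0.66 SE (log2 scale, adjusted p = 0.000587), and smallest for H2-DMa, at 2.51 ± 0.52 SE (adjusted p = 0.00322), and it was positive in all 3 tumors for each gene. In T4 it was smaller than in T3 and T5 for all 7, at 2.48 against 5.50 and 5.38 for Cd74. With T3 left out 6 of the 7 were called (34.5% of all genes), H2-DMa having an adjusted p of 0.0507. The 12 pan-leukocyte genes were all called in the same direction, with a median of 4.78.

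The populations picked by the positive gates, PDGFRA+ and GAL1+, are 1 pair that the study set against each other. From a gene ontology analysis it also reports that PDGFRA- cells, like GAL1+ cells, were enriched in inflammatory and immune genes. In the fit used here 0 of 18180 genes were called between PDGFRA+ and PDGFRA- cells. Each of the 7 genes had less RNA in PDGFRA+ cells than in the GAL1+ cells of the same tumor. The log2 fold change was −1.45 ± 0.45 SE for H2-Aa (adjusted p = 0.0300), −1.41 ± 0.42 SE for H2-DMb1 (adjusted p = 0.0272) and −1.38 ± 0.46 SE for Cd74 (adjusted p = 0.0412). It was −1.25 for H2-Eb1, −1.22 for H2-Ab1, −1.17 for H2-DMa and −1.09 for Ciita, the last with an adjusted p of 0.0479. All 7 were called, with 38% of all genes called, and their median was −1.25 against 0.01 over all genes. In the same contrast 12 of 12 pan-leukocyte genes were called lower, with a median of −1.57, and 9 of 9 macrophage markers, with a median of −1.86. Of the microglia markers 4 of 9 were called lower (median −1.56), near the share of all genes. Of the dendritic cell markers 1 of 8 was (median −0.41). The calls were close to the threshold. Without the tumor block 0 of 7 were called (17.3% of all genes), as with T3 (11.6%) or T5 (23.5%) left out. Leaving out the GAL1+ library of T3 or T4 alone gave 0 (27.6% and 21.2% of all genes). So did leaving out the PDGFRA+ library of T3 or T5 alone (21.1% and 19.4%). There were 2 without the GAL1+ library of T5 (28.8%) and 3 without the GAL1- library of T3 (35.6%). The fitted values moved less, keeping their sign in each of these fits.

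In PDGFRA- against GAL1+ cells the spread between tumors was larger. In T3, T4 and T5 the difference for Cd74 was −0.88, −2.54 and −0.38, and for Ciita −0.40, −1.84 and 0.69. The log2 fold changes ran from −1.27 ± 0.46 SE (Cd74, adjusted p = 0.0799) to −0.52 ± 0.38 SE (Ciita, adjusted p = 0.346), and none of the 7 was called, with 20.1% of all genes called. At an unadjusted p under 0.05 there were 6, all but Ciita, among 6716 of all genes. Of the pan-leukocyte genes 4 of 12 were called lower, with a median of −1.29. With T5 left out 2 were called (20.1% of all genes), and without the PDGFRA- library of T5 alone all 7 were (32.1% of all genes). Leaving out single libraries was chosen after the data had been seen.

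Both PDGFRA populations were above GAL1- cells in every tumor. In PDGFRA+ over GAL1- cells the log2 fold change was 2.96 ± 0.46 SE for Cd74 (adjusted p = 0.00395), 2.57 for H2-DMb1, 2.48 for H2-Aa, 2.35 for H2-Eb1 and 2.26 for H2-Ab1. These 5 were called, with 8.27% of all genes called. H2-DMa (1.27 ± 0.37 SE, adjusted p = 0.0712) and Ciita (1.25 ± 0.38 SE, adjusted p = 0.0873) were not. In PDGFRA- over GAL1- cells all 7 were called, with 23.1% of all genes called, from 1.34 ± 0.37 SE for H2-DMa (adjusted p = 0.0294) to 3.08 ± 0.46 SE for Cd74 (adjusted p = 0.00195). Without the tumor block 0 were called in the former (3.37% of all genes) and 2, Cd74 and H2-DMb1, in the latter (7.94%). With T3 left out the counts were 0 (0% of all genes) and 1 (9.34%). With T5 left out they were 1 (3.94%) and 0 (5.06%). All 12 pan-leukocyte genes were called higher in both comparisons, with medians of 2.80 and 3.14.

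The order of the populations was thus GAL1+, then PDGFRA- and PDGFRA+, then GAL1-. In T3 and T5 PDGFRA- cells came before PDGFRA+ cells for every member, and in T4 after them. The exception at the top was Ciita in T5, which was higher in PDGFRA- than in GAL1+ cells. Of the neighbours in this order, PDGFRA- and PDGFRA+ cells were not called different for any member, nor were GAL1+ and PDGFRA- cells with all libraries in the fit.

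Because leukocyte markers moved with the members between populations, each member was also expressed relative to the mean log2 CPM of the 12 pan-leukocyte genes in the same library, which was 7.71 ± 0.18 (SD, n = 3) in GAL1+ cells, 6.38 ± 1.04 in PDGFRA- cells, 6.13 ± 0.69 in PDGFRA+ cells and 3.23 ± 0.66 in GAL1- cells. Cd74 lay above that mean by 4.99 ± 0.70 (SD, n = 3) in GAL1+ cells, 5.05 ± 0.50 in PDGFRA- cells, 5.19 ± 0.65 in PDGFRA+ cells and 5.12 ± 0.40 in GAL1- cells, a range narrower than the spread between tumors. H2-DMb1 lay close to the mean in all 4 populations, at −0.54 ± 0.53 in GAL1+ and −0.05 ± 0.61 in GAL1- cells. H2-Aa, H2-Ab1 and H2-Eb1 were at 2.79 ± 0.95, 3.63 ± 0.73 and 3.19 ± 0.81 in GAL1+ cells. In GAL1- cells they were at 3.33 ± 0.48, 4.63 ± 0.49 and 4.06 ± 0.55, their highest means of the 4 populations. The rise toward GAL1- cells was largest for H2-DMa and Ciita. H2-DMa was at −0.40 ± 0.46 in GAL1+ cells and 1.64 ± 0.75 in GAL1- cells, where all 3 values (2.11, 0.77 and 2.03) were above those of every other library. Ciita was at −2.28 ± 0.90 in GAL1+ and −0.13 ± 0.80 in GAL1- cells.

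The same limma fit on the values centred in this way gave log2 fold changes of GAL1+ over GAL1- cells of −2.04 ± 0.52 SE for H2-DMa (adjusted p = 0.000373), −2.15 ± 0.54 SE for Ciita (adjusted p = 0.000277) and −0.997 ± 0.49 SE for H2-Ab1 (adjusted p = 0.0498). The other 4 were not called, from −0.88 (H2-Eb1, adjusted p = 0.0855) to −0.13 (Cd74, adjusted p = 0.787). This centring shifts all genes alike: on this scale 95.6% of all genes were called, nearly all of them lower, and the median over all genes was −4.51 against −0.88 for the members. A value of 0 on this scale means a change equal to the mean change of the leukocyte markers. The negative values of the members therefore mean a smaller fitted rise than that of the markers. They do not mean less class II RNA in GAL1+ than in GAL1- cells. Between PDGFRA+ and GAL1+ cells none of the 7 was called on this scale, with values from 0.12 to 0.49 against a median of 1.58 over all genes and 67.1% of all genes called.

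**Figure D3:**
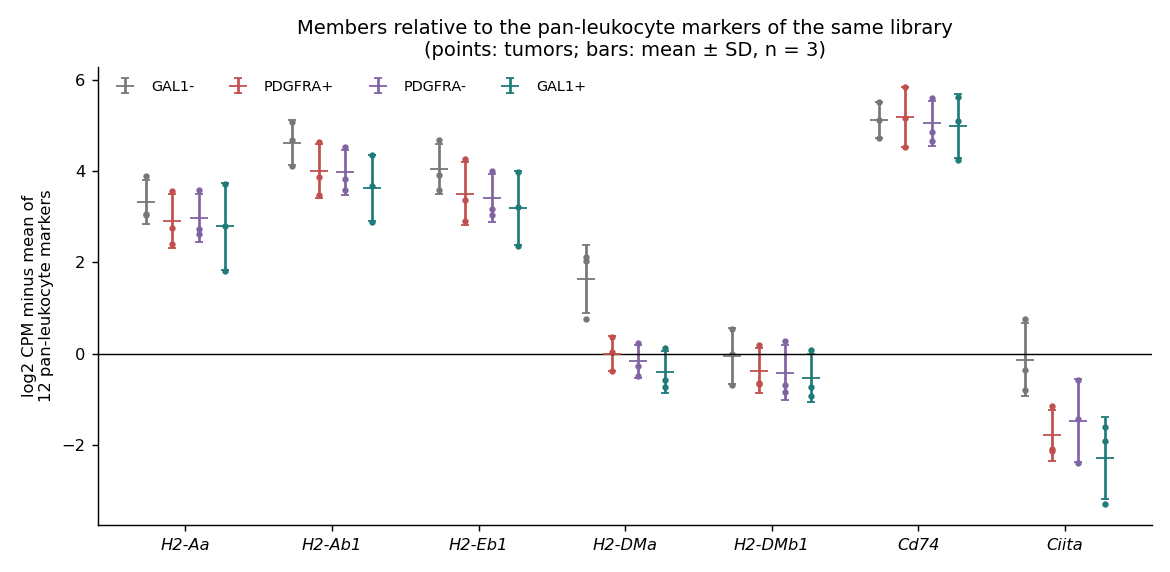
Log2 CPM of each gene minus the mean log2 CPM of the 12 pan-leukocyte markers of the same library (y axis), by gene (x axis) and population (colors). Points are tumors and bars are the mean ± SD (n = 3). Cd74 sits near 5 in all 4 populations. Every other gene has its highest mean in GAL1- cells, by the widest margin for H2-DMa and Ciita.

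Among the chain genes, H2-Eb1 lay below H2-Ab1 by 0.37 to 0.76 (log2 CPM) in the 12 libraries. H2-Aa lay below H2-Ab1 by 0.62 to 1.06 in GAL1+ cells and by 1.07 to 1.62 in GAL1- cells. Cd74 exceeded H2-Ab1 by 1.28 to 1.42 in GAL1+ cells and by 0.04 to 1.01 in GAL1- cells. The difference of H2-DMa over H2-DMb1, the pair that forms H2-DM, was 0.05 to 0.19 in GAL1+ cells, −0.04 to 0.42 in PDGFRA- cells, 0.18 to 0.69 in PDGFRA+ cells, and in GAL1- cells it reached 1.45 to 2.10. The GAL1- range of that pair did not overlap any other. Ciita lay below H2-Ab1 by 5.59 to 6.18 in GAL1+ and by 4.33 to 5.04 in GAL1- cells. These ratios are descriptions, and the share of H2-DMb1 reads counted as fractions bears on the pair.

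The tumors differed as well. Averaged over the 4 populations, Ciita was at 3.34 in T3, 4.34 in T4 and 5.66 in T5, Cd74 at 9.92, 10.97 and 11.95, and H2-Ab1 at 9.04, 9.77 and 10.95. T5 exceeded T3 in every population for every member, by 2.32 (log2 CPM, mean over populations) for Ciita, 2.10 for H2-Aa, 2.09 for H2-Eb1, 2.03 for Cd74, 1.91 for H2-Ab1, 1.75 for H2-DMb1 and 1.32 for H2-DMa. Ptprc, which encodes CD45, differed between the same tumors by 1.20. The mean of the 12 pan-leukocyte genes did not follow the members in every population. From T3 to T5 it went from 7.50 to 7.85 in GAL1+ cells, where Cd74 went from 11.74 to 13.48. From T4 to T5 it went from 3.80 to 3.38 in GAL1- cells, where H2-Aa went from 6.85 to 7.27. Cd74 went from 8.93 to 8.90 in those libraries. Each tumor is a single animal, so these differences were not tested.

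The other class II genes followed the members, with 58.2% of all genes called between GAL1+ and GAL1- cells. H2-Ea, H2-Eb2, H2-DMb2, H2-Oa and H2-Ob were all called higher in GAL1+ than in GAL1- cells (5 of 5, median log2 fold change 3.36), from 3.04 ± 0.45 SE for H2-Oa, a chain of the H2-DM inhibitor H2-O, to 3.87 ± 0.44 SE for H2-Ea (adjusted p = 9.22e-05). H2-Ob, the partner of H2-Oa, was at 3.44 ± 0.40 SE and was at 2.50, 3.70 and 4.41 in GAL1+ and −1.55, 0.53 and 1.33 in GAL1- cells (log2 CPM). In PDGFRA+ against GAL1+ cells 2 of these 5 were called lower, H2-Ea (−1.43, adjusted p = 0.0288) and H2-DMb2 (−1.35, adjusted p = 0.0265). That count lies near the 38% of all genes called there. In PDGFRA+ against PDGFRA- cells none of them was called, with 0% of all genes called.

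Genes that prepare peptide and trim the invariant chain, or that turn class II molecules over, were mostly higher in GAL1+ than in GAL1- cells, with 9 of 10 called higher, 1 called lower and a median log2 fold change of 3.37. Ctss, the protease cathepsin S that completes invariant chain removal, had the largest value (5.66 ± 0.52 SE, adjusted p = 4.76e-05) and was at 11.48, 12.33 and 12.96 in GAL1+ and 5.29, 7.55 and 6.94 in GAL1- cells (log2 CPM). Marchf8, a ubiquitin ligase of surface proteins, was the gene called lower (−0.40 ± 0.11 SE, adjusted p = 0.00999). The cathepsins and other lysosomal genes of this list are expressed in many cell types. All 3 co-stimulation genes were called higher, from 2.92 ± 0.37 SE for Cd80 to 4.34 ± 0.39 SE for Cd86. These counts stand beside 58.2% of all genes called between GAL1+ and GAL1- cells. In PDGFRA+ against GAL1+ cells 8 of the 10 processing genes and all 3 co-stimulation genes were called lower, with 38% of all genes called.

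The DNA-binding factors of the class II promoter showed no shared direction. Of 7 genes, Rfx5, Rfxap, Rfxank, Creb1, Nfya, Nfyb and Nfyc, 1 was called higher in GAL1+ than in GAL1- cells and 2 lower, with a median log2 fold change of −0.03, the same as over all genes. Nfya, a subunit of the Y box factor NF-Y, was the gene called higher (1.21 ± 0.16 SE, adjusted p = 0.000185), and Nfyc, another subunit, had the most negative value (−0.40 ± 0.10 SE, adjusted p = 0.00836). Rfx5, which binds the X box, was at −0.03 ± 0.13 SE (adjusted p = 0.851). In the interferon-gamma axis 5 of 8 genes were called higher and none lower, with a median of 0.71. With 58.2% of all genes called between GAL1+ and GAL1- cells, the counts of these lists are not set apart from that share. Ifngr1, a receptor chain, had the largest value (2.23 ± 0.24 SE, adjusted p = 7.09e-05). Ifng itself was at −1.18 ± 0.55 SE (adjusted p = 0.0895), on 8.14 to 18.2 recovered reads in the GAL1+ libraries, and Irf1 (0.21) and Socs1 (0.46) were not called either.

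**Figure D4:**
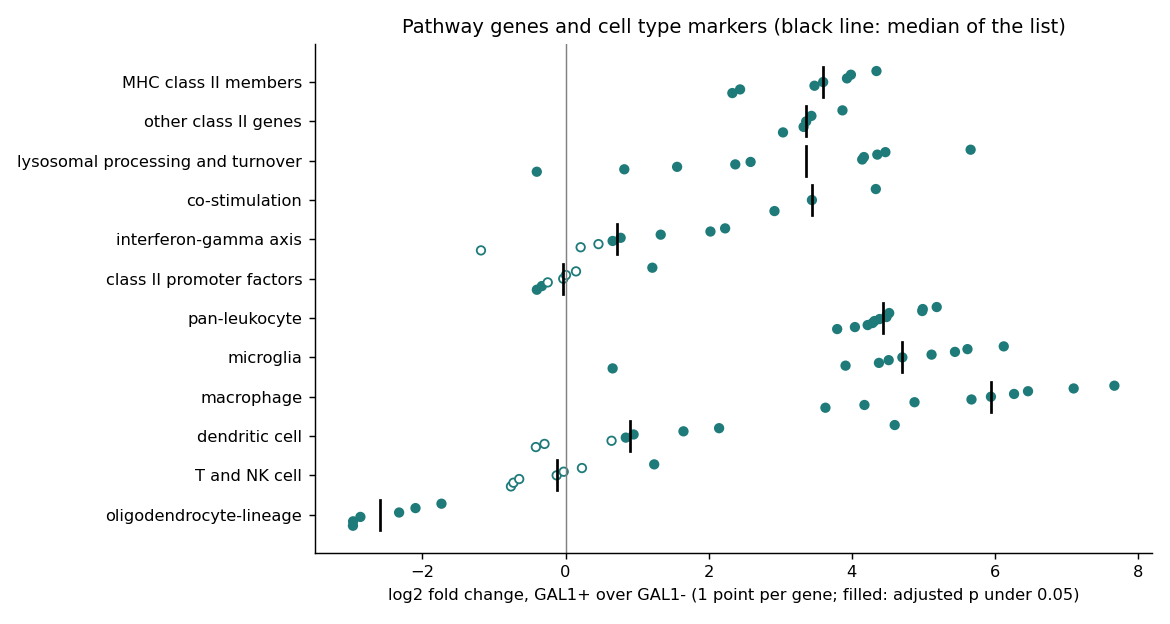
Log2 fold change of GAL1+ over GAL1- cells (x axis) for each gene of the members, the other pathway lists and 6 cell type marker lists (rows). Each point is a gene, filled where the adjusted p is under 0.05, and black lines are list medians. The members (median 3.60) lie between the dendritic cell markers (median 0.90) and the pan-leukocyte, microglia and macrophage markers (medians 4.44, 4.71 and 5.95).

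Markers of the cell types that usually carry class II were summed in each library. Summed levels of 9 macrophage markers ran from 2270 to 2887 CPM in GAL1+ libraries, 487 to 2561 in PDGFRA- libraries, 487 to 1053 in PDGFRA+ libraries and 25.3 to 86.3 in GAL1- libraries. For 9 microglia markers they ran from 1727 to 2358 in GAL1+ libraries, 279 to 1195 in PDGFRA- libraries, 403 to 1080 in PDGFRA+ libraries and 75.9 to 137 in GAL1- libraries. Of the 8 dendritic cell markers tested 5 were called higher in GAL1+ than in GAL1- cells: Itgax (4.60 ± 0.49 SE), which macrophages and microglia can also express, Batf3 (2.15), Clec10a (1.65), Ccr7 (0.95) and Zbtb46 (0.84). Xcr1 (0.64, adjusted p = 0.382), Flt3 (−0.29, adjusted p = 0.586) and Cd24a (−0.42, adjusted p = 0.336) were not called. Clec9a and Cd209a are not among the 18180 genes. In this comparison 58.2% of all genes were called, and the dendritic cell count lies near that share. Endothelial markers also rose, with 6 of 7 called higher (median 2.28), and of the 7 T and NK cell markers tested Cd4 alone was called higher (median −0.12). Of the 4 neutrophil markers tested 2 were called higher (median 0.92), again near the share of all genes. Of the 2 B cell markers tested Ighm was called higher (3.35). A list of oligodendrocyte-lineage and tumor genes, among them Olig2 and mouse Egfr, went the other way, with 6 of 6 called lower in GAL1+ than in GAL1- cells (median −2.60).

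The genes most like the class II chains were sought by the Pearson correlation of each gene with the mean of H2-Aa, H2-Ab1 and H2-Eb1 over the 12 libraries, after subtracting each tumor's mean. The 10 non-member genes with the highest values were H2-Ea (r = 0.999), Clec7a, Olr1, H2-DMb2, Mir5107, Cd52, Cds1, Unc93b1, Man2b1 and Adgrg5 (r = 0.994). Clec7a is a receptor for fungal glucans on myeloid cells, Olr1 a scavenger receptor and Unc93b1 the chaperone of endosomal Toll-like receptors. Cd52 is also a gene of the pan-leukocyte list. Of the members outside that mean, H2-DMb1 had r = 0.997 and Cd74 r = 0.996, while H2-DMa (r = 0.973, rank 526) and Ciita (r = 0.958, rank 975) stood lower. In all, 1164 genes reached r = 0.95, the 12 pan-leukocyte genes among them. The libraries share populations and tumors, so these values describe likeness over these 12 libraries only. Depth went with the population: each GAL1- library had at least 21728280 recovered reads, and no other had more than 18522549.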

How the data were processed

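RNA of sorted cells was made into libraries with a SMARTer stranded total RNA kit. The authors trimmed reads with fastp, aligned them with STAR to mm39, counted exons with featureCounts (multi-mapping reads as fractions), kept genes with CPM above 1 in at least 3 samples, normalized by TMM and applied voom; the values they deposited are log2 CPM, 18180 genes by 12 libraries. Tool versions are not given in the sources used here.

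Reads were recovered on the assumption that a library's lowest value is 0 reads plus the 0.5 that voom adds; 41.3% to 59.2% of values per library were whole within 0.01. limma 3.58.1 (R 4.3.3) was fitted across all genes to all 12 libraries, with population and tumor terms and a mean-variance trend, and p-values were Benjamini-Hochberg adjusted over all genes, two-sided. Libraries of the same tumor come from the same animal, so the tumor was kept as a block. After removing population means they had a mean correlation across genes of 0.486 (18 pairs), against −0.306 for different tumors (48 pairs). Removing a mean over 3 tumors by itself lowers the values between different tumors, so the −0.306 is no separate ground for the block. Each population has 3 tumors. The tumor term removes differences in level between tumors from the error. The p-values therefore rest on how differences between populations vary from tumor to tumor, pooled over all 12 libraries. The fit was checked on simulated data. Promoter letters were searched with Python 3.11.15, and figures were drawn with matplotlib 3.10.9.

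The members and gene lists were chosen with earlier results of these data known. Named are all members and class II genes, the genes with the largest positive and negative GAL1+ over GAL1- values in each other pathway list, the 10 most alike genes and the sort markers; cell type markers given by name, and Rfx5, Irf1, Socs1 and the Ifng reads, were chosen after their values were seen. Alternatives are listed in the closing section. An allele of the model and some markers are not reported here.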

Additional observations from a re-analysis of the deposited data

Results flagged for a closer look

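For all 7 genes the step from the negative to the positive gate differed between the GAL1 sort and the PDGFRA sort, by the test of that difference in the limma fit. The difference of the steps (GAL1 minus PDGFRA, log2 scale) was 4.26 for H2-Aa, 3.72 for H2-Ab1, 3.75 for H2-Eb1, 2.51 for H2-DMa, 4.19 for H2-DMb1, 4.46 for Cd74 and 2.90 for Ciita, positive in 3 of 3 tumors for each. With T3 left out H2-DMa was not called (2.40, adjusted p = 0.0507). The pan-leukocyte markers differed between the steps by a median of 4.78, and their part in the differences was not tested.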

How the results depend on the processing

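Alternatives were a fit without the tumor block, a fit to the populations compared only, eBayes without a trend, voom weights from recovered reads, a pseudocount of 1, a filter at log2 CPM above 1 in at least 3 libraries, quantile normalization, centring on the library median or on the pan-leukocyte mean, leaving out each tumor and, added after seeing the data, each library. Of 1169 values of single genes under them, 955 kept direction and side of the threshold, 117 lost the call, 18 gained it and 79 changed sign. The cause of these changes was not tested. Without the tumor block the members called were 0 in PDGFRA+ against GAL1+ cells (17.3% of all genes). They were 0 in PDGFRA+ against GAL1- (3.37%) and 2 in PDGFRA- against GAL1- cells (7.94%). In PDGFRA+ against GAL1+ cells they were 2 without a variance trend (35.3%) and 3 after quantile normalization (37.7%). In PDGFRA- against GAL1+ cells they were 2 after centring on the library median (22.5%). With a tumor or library left out the members called ran from 0 to 7 in each of these 4 comparisons. The share of all genes ran from 11.6% to 43.4% in PDGFRA+ and 0% to 32.1% in PDGFRA- against GAL1+ cells. It ran from 0% to 10.6% in PDGFRA+ and 5.06% to 33.1% in PDGFRA- against GAL1- cells. Centred on the pan-leukocyte mean, which shifts all genes alike, members called were 3 in GAL1+ against GAL1- (95.6% of all genes), 0 in PDGFRA+ against GAL1+ (67.1%), 2 in PDGFRA+ against GAL1- (94.1%), 2 in PDGFRA- against GAL1- (93.9%) and 2 in the difference of the steps (93.6%).

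On that centring the log2 fold changes that changed sign were, in the order H2-Aa, H2-Ab1, H2-Eb1, H2-DMa, H2-DMb1, Cd74 and Ciita unless named, in GAL1+ against GAL1- cells −0.54, −0.997, −0.88, −2.04, −0.49, −0.13 and −2.15. Those in PDGFRA+ against PDGFRA- cells (H2-Ab1, H2-Eb1, H2-DMa, H2-DMb1, Cd74) were 0.013, 0.11, 0.18, 0.046 and 0.14. Those in PDGFRA+ against GAL1+ cells were 0.12, 0.36, 0.33, 0.41, 0.16, 0.20 and 0.49. Those in PDGFRA- against GAL1+ cells were 0.20, 0.35, 0.22, 0.23, 0.12, 0.058 and 0.81. Those in PDGFRA+ against GAL1- cells (H2-Aa, H2-Ab1, H2-Eb1, H2-DMa, H2-DMb1, Ciita) were −0.42, −0.64, −0.55, −1.63, −0.33 and −1.65. Those in PDGFRA- against GAL1- cells were −0.35, −0.65, −0.66, −1.81, −0.37, −0.074 and −1.34. Those in the difference of the steps were −0.47, −1.01, −0.98, −2.21, −0.54, −0.27 and −1.83. In PDGFRA+ against PDGFRA- cells quantile normalization turned H2-Ab1 to 0.12, H2-Eb1 to 0.044 and Cd74 to 0.19, and with a tumor or library left out the values ran from −1.12 to 0.12 for H2-Aa, −0.95 to 0.18 for H2-Ab1, −0.89 to 0.28 for H2-Eb1, −0.74 to 0.36 for H2-DMa, −0.98 to 0.30 for H2-DMb1 and −0.90 to 0.34 for Cd74. In PDGFRA- against GAL1+ cells Ciita ran from −1.12 to 0.14. In GAL1+ against GAL1- cells all 7 were called with any tumor or library left out (44.4% to 61% of all genes). Without the replicate block (tumor) Ciita lost its call there (6 called, 46.2% of all genes). It also lost its call in the difference of the steps (6 called, 36.8%). With T3 left out H2-DMa lost its call in the difference of the steps (6 called, 34.5%). The least-read value of a member was Ciita at 123 reads, and the number of tumors, 3, also limits the precision.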

Other observations

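In PDGFRA- against GAL1+ cells, where no member was called, limma called 20.1% of all genes, 2395 higher and 1257 lower. Of 8 dendritic cell markers 1 was called higher and none lower, with log2 fold changes from −1.47 to 1.90 (median 0.15). In the interferon-gamma axis 1 of 8 genes was called higher and 1 lower (median −0.37). These counts lie near the share over all genes. Flt3, a receptor of dendritic cells and their precursors, was at a log2 CPM of 3.41, 2.93 and 4.08 in PDGFRA- cells of T3, T4 and T5 and at 1.52, 2.04 and 1.15 in GAL1+ cells (log2 fold change 1.90 ± 0.44 SE, adjusted p = 0.0194, higher in 3 of 3 tumors). Ifng, the cytokine that induces Ciita, was at 1.53, 2.63 and 1.13 in PDGFRA- and 0.13, −0.54 and −0.24 in GAL1+ cells (1.98 ± 0.55 SE, adjusted p = 0.0347, 3 of 3 tumors). In GAL1- cells, where the members were lowest, Ifng was at −0.44, 2.37 and 0.97. Ifng rests on 23 to 58 recovered reads in the PDGFRA- libraries. Both genes were chosen after their values were seen.

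The immunoglobulin light chain gene Igkc, from plasma and B cells, was at 2.74, −0.44 and 4.94 in PDGFRA-, 1.22, 2.75 and 3.47 in PDGFRA+, −1.43, 1.02 and 2.05 in GAL1+ and 0.45, 1.31 and 4.62 in GAL1- cells of T3, T4 and T5, and was not called between GAL1+ and GAL1- cells (−1.58, adjusted p = 0.170).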
